A study of Homo sapiens with 6 samples.

Results

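Matrix metalloproteinase (MMP) and TIMP genes were compared between the 786-O line of clear cell renal carcinoma and the derived line labelled 786-O FOXD1null. The members were named by symbol (MMP1, MMP2, MMP7, MMP13, MMP14, MMP15, TIMP1, TIMP2 and TIMP3) and matched to Ensembl identifiers. Of these 9 symbols, 8 were matched among the 16922 genes of the table, all 8 passed the filter on low values, and TIMP3 was not analysed here. Both lines were grown on plastic to 70% confluency in RPMI-1640 with serum, and the labels name no treatment. They differ by the label at FOXD1, parental or null, and share the background of 786-O, including its mutated VHL. The derivative was made in the laboratory of the study, and the sources used here do not give whether it is 1 clone. RNA of each line was sequenced in 3 libraries, in paired reads of 150 bp. GEO's design text calls them biological triplicates but does not say that they came from separate cultures, so a p-value here reflects only library-to-library spread, possibly technical.

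MMPs are zinc-dependent proteases that cut collagens, laminins, proteoglycans and other proteins of the extracellular matrix. They are made as inactive proenzymes whose prodomain must be removed, some in the secretory pathway by furin and others outside the cell by plasmin or other MMPs. TIMPs are small secreted proteins that block the active site in a complex with 1 inhibitor per enzyme, and TIMP2 also helps the membrane enzyme MT1-MMP, the product of MMP14, to activate the MMP2 proenzyme. In carcinomas these enzymes are studied mainly for their part in invasion. RNA was measured here, so the values say nothing of the secreted protein, of its activation or of its inhibition.

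FOXD1 itself had 432, 498 and 480 normalized counts in parental 786-O, against 1277, 1048 and 901 in FOXD1null-labelled libraries. Its RNA was thus higher under the null label (log2 fold change 1.18, adjusted p = 3.9e-04 by limma), and directions are given here by the label. The derivative is called FOXD1null only as its label, and its genotype was not checked here. The study refers to its earlier work for the knockout, and RNA counts do not give the level of FOXD1 protein. A normalized count is the number of reads of a gene divided by the DESeq2 size factor of its library. The libraries held 30982463 to 37843830 reads in genes. Replicate 1 of the FOXD1null label stood apart from the other libraries of its group, with a median absolute log2 difference of 0.27 from their mean, while the other 5 libraries were at 0.070 to 0.17. Results are therefore also given without it, where 55.0% of all genes tested passed, and 35.0% passed with equal library totals. Of 8 renal markers 7 were matched, and PAX8, PAX2, CDH6, KRT8, KRT18 and VIM were abundant in all libraries, PAX2 the least at 895 or more normalized counts, while NDUFA4L2, a hypoxia target typical of this carcinoma, was at 18.4 to 48.0 normalized counts. These markers also differed between the lines in both directions, since PAX8 and VIM rose by 0.26 and by 0.47 on the log2 scale, while PAX2 fell by 0.35 and CDH6 fell by 1.93 (limma adjusted p of 0.0082, 0.0019, 0.011 and 2.5e-05 in that order). Their part in the MMP and TIMP results was not tested. None of 6 endothelial markers and 1 of 8 leukocyte markers, CSF1R, could be matched in the table.

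Differences were tested with limma on log2(normalized count + 1) over the 16901 genes whose mean reached 10, with the threshold for passing at an adjusted p of 0.05 or less. Of these genes 33.4% passed, 16.3% higher and 17.1% lower in FOXD1null-labelled libraries. With equal library totals the split moved from 2751 higher and 2888 lower genes to 2040 and 3873. Among the 8 measured MMP and TIMP genes, MMP14 and TIMP1 were higher, MMP1, MMP7, MMP13 and MMP2 were lower, and MMP15 and TIMP2 did not pass. A decrease of at least 1 on the log2 scale that also passed the threshold was seen in 5.22% of all genes tested and in 3 of the 8. The values of the groups did not overlap in 6 of the 8 genes, against 49.0% of all genes tested. The median log2 fold change was -0.29 over the 8 and -0.01 over all genes tested. The 6 genes that passed are a larger share than the background, but the members were chosen with results of these data known, and no test was made over the list. With 3 libraries against 3, an exact permutation test of single genes cannot give a p under 0.1, and it gave p = 0.1 for each of the 6.

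**Figure D1:**
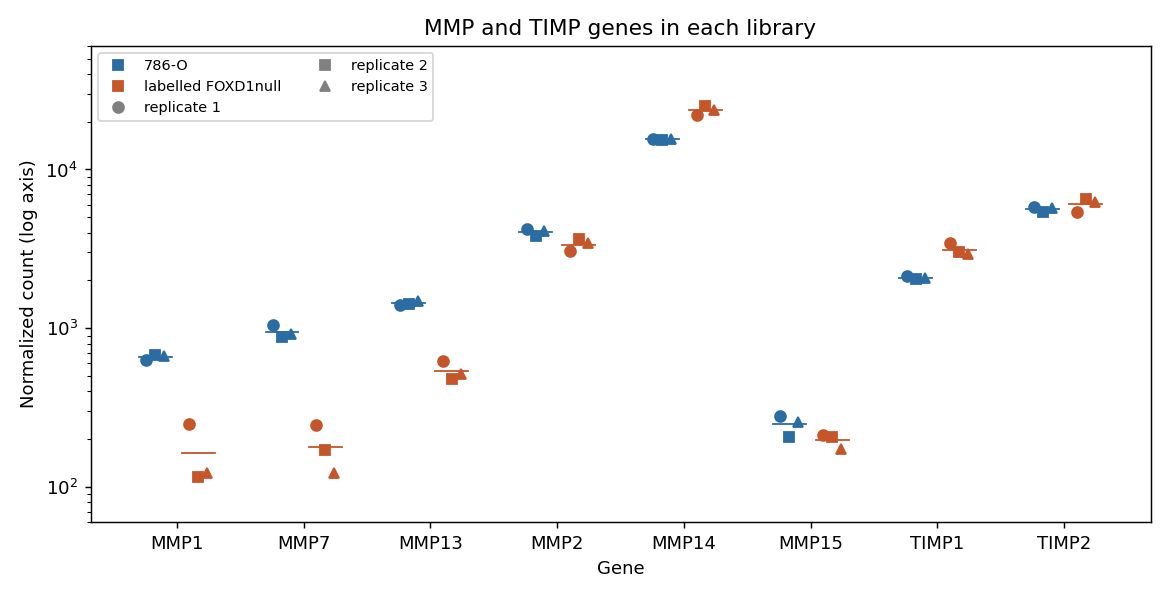
Normalized counts (log axis) of the 8 measured MMP and TIMP genes in each of the 6 libraries. Blue points are 786-O and orange points FOXD1null-labelled libraries, symbols mark the replicate, and short lines are group means. MMP1, MMP7 and MMP13 lie lower and MMP14 and TIMP1 higher in all 3 orange libraries, while the groups overlap in MMP15 and TIMP2.

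To show sequence beside these levels, the 250 bases before the RefSeq transcription start (GRCh38.p14) were read for the genes that passed and had an entry. MMP7 was lower and MMP14 and TIMP1 were higher in FOXD1null-labelled libraries. Capitals mark matches on either strand to any of 6 short motifs: TGANTCA for AP-1, GTAAACA for forkhead factors, AGGAAG for ETS factors, CTTTGAT for TCF/LEF, TGTGGTT for RUNX and TATAAA for the core promoter box. The motifs do not overlap in the matches found. The windows are chr11:102530748-102530997 on the minus strand for MMP7, chr14:22836335-22836584 on the plus strand for MMP14 and chrX:47582186-47582435 on the plus strand for TIMP1.
MMP7: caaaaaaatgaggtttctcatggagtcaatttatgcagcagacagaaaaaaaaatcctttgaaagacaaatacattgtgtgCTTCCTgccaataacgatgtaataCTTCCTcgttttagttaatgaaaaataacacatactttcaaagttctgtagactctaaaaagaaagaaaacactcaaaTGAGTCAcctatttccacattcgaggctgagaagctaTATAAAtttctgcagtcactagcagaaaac
MMP14: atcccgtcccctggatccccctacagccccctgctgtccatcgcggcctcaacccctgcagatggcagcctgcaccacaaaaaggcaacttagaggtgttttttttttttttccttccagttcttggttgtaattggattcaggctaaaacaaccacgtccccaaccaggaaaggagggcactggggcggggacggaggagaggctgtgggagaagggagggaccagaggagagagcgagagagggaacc
TIMP1: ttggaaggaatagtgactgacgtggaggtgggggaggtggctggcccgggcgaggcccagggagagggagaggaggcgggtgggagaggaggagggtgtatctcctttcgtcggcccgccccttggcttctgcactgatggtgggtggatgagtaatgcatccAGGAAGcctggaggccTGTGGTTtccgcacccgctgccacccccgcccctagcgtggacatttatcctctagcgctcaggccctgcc

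In the MMP7 window, TATAAA began 30 bases and TGAGTCA 67 bases before the start, and AGGAAG occurred on the opposite strand at 145 and 169 bases, counted to the first base on the gene's strand. The TIMP1 window held AGGAAG at 87 bases and TGTGGTT at 71 bases. The MMP14 window held no match to the 6 motifs, nor did that of MMP15, the other member with an entry. GTAAACA and CTTTGAT were in none of the 4 windows. Of 35116 RefSeq windows of the same length, TGANTCA was in 6.57%, GTAAACA in 2.98%, AGGAAG in 28.7%, CTTTGAT in 2.26%, TGTGGTT in 3.65% and TATAAA in 10.7%. A match describes the letters only and does not show that a factor binds there. MMP1, MMP13, MMP2 and TIMP2 had no entry.

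The secreted enzymes encoded on chromosome 11 had less RNA in FOXD1null-labelled libraries. MMP1, the interstitial collagenase that cuts fibrillar collagens, had 627, 682 and 672 normalized counts in parental 786-O, against 251, 115 and 122 in FOXD1null-labelled libraries. All 3 libraries of the derivative lay below all 3 of 786-O, with replicate 1 at more than the level of replicates 2 and 3 together. The means were 660 ± 29.0 and 163 ± 76.5 (SD, n = 3 libraries per group), a log2 fold change of -2.11 (SE 0.26, adjusted p = 7.2e-04 by limma). With FOXD1null replicate 1 left out it was -2.46. In hg38, MMP1 (ENSG00000196611) spans 102789401 to 102798160 of chromosome 11 on the minus strand, and 223 bases of its exons overlap exons of the pseudogene WTAPP1 on the other strand. The sources used here do not give whether counting used strand, and reads of both genes cannot be told apart there.

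MMP7, or matrilysin, is the smallest of these enzymes and is made by epithelial cells. It had 1051, 875 and 920 normalized counts in parental 786-O, against 246, 171 and 123 in FOXD1null-labelled libraries. The highest library of the derivative was thus far below the lowest of 786-O. Its means of 949 ± 91.7 and 180 ± 61.7 (SD, n = 3) gave the largest difference among the members, a log2 fold change of -2.44 (SE 0.22, adjusted p = 1.7e-04 by limma). The value was -2.70 with FOXD1null replicate 1 left out. The 95% intervals of MMP7 (-2.95 to -1.94) and MMP1 (-2.71 to -1.50) overlapped, and the difference between these genes was not tested.

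MMP13, or collagenase 3, also cuts fibrillar collagens and prefers collagen II. It had 1398, 1422 and 1489 normalized counts in parental 786-O, against 624, 476 and 512 in FOXD1null-labelled libraries. The groups were again separate, and both were narrow beside the gap. The log2 fold change of MMP13 was -1.43 (SE 0.11, adjusted p = 7.6e-05 by limma), and -1.54 with FOXD1null replicate 1 left out. On the log2 scale, that replicate had covered 56.4% of the way from 786-O to the mean of replicates 2 and 3 for MMP1, 72.0% for MMP7 and 78.0% for MMP13. Over the table it took an intermediate position, between the parental mean and the mean of its own group mates, in 60.5% of the genes that passed. Of the 6 members that passed it did so in 4, MMP1, MMP7, MMP13 and MMP14.

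MMP7 (102520508 to 102530750) and MMP13 (102942995 to 102955732) lie on the same strand of chromosome 11 as MMP1, in the cluster of MMP genes. The 3 members were the genes of the table within this span, and all 3 were lower. Within 1 Mb on either side, 10 further genes were tested. Of these, 4 were higher and 1 was lower, around a median of -0.01 on the log2 scale, against 16.3% and 17.1% of all genes tested. On both sides, the nearest genes whose mean reached 100 were higher, but neither call held without 786-O replicate 1 or without 786-O replicate 3, and that of TMEM123 was also lost without 786-O replicate 2 or FOXD1null replicate 2 or 3. TMEM123, a membrane protein gene beyond MMP7, went from 12281 ± 518 to 15908 ± 2106 normalized counts and rose by 0.37 on the log2 scale (adjusted p = 0.023 by limma). DCUN1D5, which encodes a cullin neddylation factor beyond MMP13, rose by 0.42 (adjusted p = 0.020). BIRC3 and BIRC2, which encode inhibitors of apoptosis in NF-kB signaling, rose by 1.49 and 0.55, and DYNC2H1, a dynein motor gene of cilia, fell by 0.78. YAP1, the coactivator of the Hippo pathway, did not pass at -0.02 (adjusted p = 0.91). The lower level was thus seen in the 3 measured MMP genes of this stretch and not in most measured genes around them. Any MMP gene of the cluster that is absent from the table was not measured, and no test was made of the region as a whole.

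**Figure D2:**
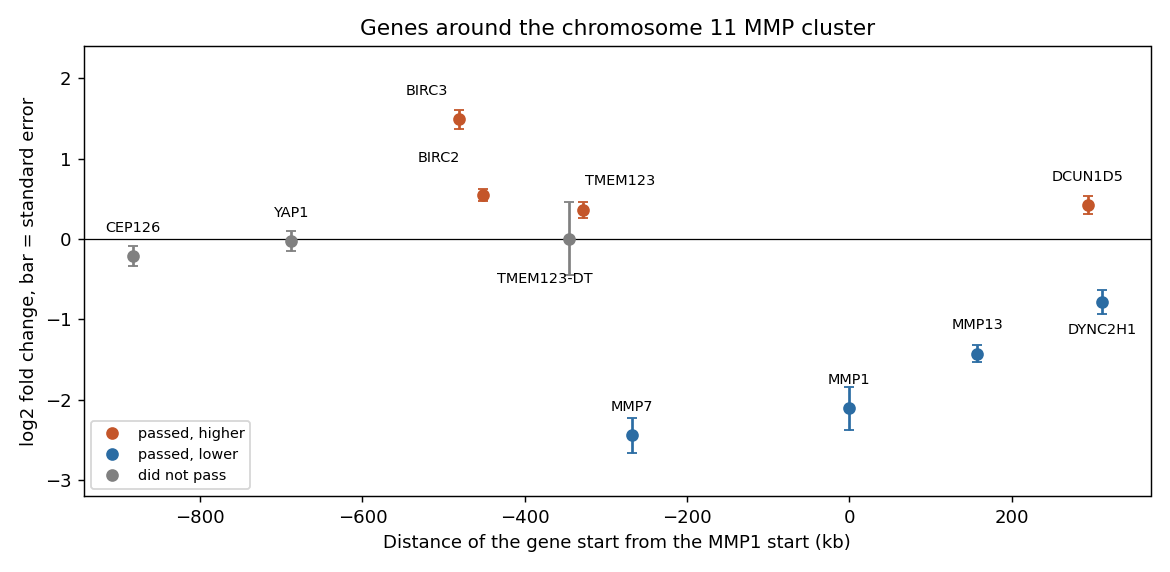
Log2 fold change (libraries labelled FOXD1null over 786-O, bars are standard errors) of named genes around the chromosome 11 MMP cluster, against the distance of each gene's start from that of MMP1 in kb. MMP7, MMP1 and MMP13 are the lowest points, at -2.44, -2.11 and -1.43, and BIRC3, BIRC2, TMEM123 and DCUN1D5 lie above 0.

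MMP2, or gelatinase A, cuts denatured collagens and collagen IV of basement membranes. It had 4200, 3800 and 4116 normalized counts in parental 786-O, against 3053, 3626 and 3418 in FOXD1null-labelled libraries. The groups did not overlap, but the lowest 786-O library and the highest of the derivative were close. The log2 fold change was small at -0.27 (SE 0.08, 95% interval -0.45 to -0.08, adjusted p = 0.037 by limma). Replicate 1 of the FOXD1null label was the farthest from 786-O here, and without it the value was -0.20 (adjusted p = 0.0024). MMP2 did not pass without any 1 of 786-O replicates 1, 2 and 3 or FOXD1null replicate 3 (adjusted p = 0.14, 0.057, 0.13 and 0.070 in that order, with 0.0024 and 0.14 as the extremes of all alternatives), nor with a replicate block (0.078), so that its call is not firm. Of all genes tested, 21.4%, 23.8%, 21.5% and 27.0% passed without those libraries and 28.9% with the block. Without FOXD1null replicate 2, 24.5% did, and MMP2 was among them. MMP2 (ENSG00000087245) lies on chromosome 16 from 55389700 to 55506691, and 174 of its exon bases overlap another annotated gene on the same strand.

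MMP14 encodes MT1-MMP, the membrane-anchored enzyme that cuts collagen at the cell surface and activates the MMP2 proenzyme. It was the most abundant member, with 15590, 15406 and 15609 normalized counts in parental 786-O, against 21908, 25183 and 23817 in FOXD1null-labelled libraries. All 786-O libraries lay within 1 narrow range, and every library of the derivative was above it. The means of 15535 ± 112 and 23636 ± 1645 (SD, n = 3) gave a log2 fold change of 0.60 (SE 0.07, adjusted p = 4.4e-04 by limma), and 0.66 with FOXD1null replicate 1 left out. MMP14 (ENSG00000157227) lies on chromosome 14 from 22836560 to 22849041. Of 33 further genes tested within 1 Mb of its start, 4 were higher and 7 lower, against 16.3% and 17.1% of all genes tested.

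MMP15 encodes MT2-MMP, a related membrane-anchored enzyme. It was the least abundant member per length, with 281, 208 and 256 normalized counts in parental 786-O, against 212, 205 and 175 in FOXD1null-labelled libraries. The groups overlapped, since 786-O replicate 2 lay below replicate 1 of the derivative. MMP15 did not pass, at a log2 fold change of -0.32 (95% interval -0.65 to 0.00, adjusted p = 0.12 by limma). It passed with FOXD1null replicate 1 left out, at -0.38 (adjusted p = 0.020, where the alternatives spanned 0.020 to 0.34), and with equal library totals, at -0.41 (adjusted p = 0.047). The direction was the same in all 16 alternatives. With all libraries and the DESeq2 size factors, a decrease of this size could not be told from no change.

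Of the inhibitors, TIMP1 rose and TIMP2 did not pass. TIMP1, which binds most secreted MMPs but blocks MT1-MMP poorly, had 2133, 2056 and 2070 normalized counts in parental 786-O, against 3431, 3004 and 2914 in FOXD1null-labelled libraries. Every library of the derivative was above every 786-O library. Its log2 fold change was 0.58 (SE 0.08, adjusted p = 9.6e-04 by limma), from a mean of 2086 ± 40.8 to 3117 ± 276 (SD, n = 3), and 0.50 with FOXD1null replicate 1 left out. TIMP1 (ENSG00000102265) lies on the X chromosome from 47582408 to 47586789, inside SYN1 on the other strand, with which it shares no exon base.

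TIMP2, which blocks MT1-MMP and binds the MMP2 proenzyme, had 5816, 5376 and 5685 normalized counts in parental 786-O, against 5391, 6529 and 6204 in FOXD1null-labelled libraries. Replicates 2 and 3 of the derivative were above 786-O and replicate 1 was within its range. The log2 fold change was 0.10 (SE 0.08, 95% interval -0.09 to 0.29, adjusted p = 0.40 by limma). With FOXD1null replicate 1 left out, TIMP2 passed at 0.18 (adjusted p = 0.0020, where the alternatives spanned 0.0020 to 0.96), which leaves the call to that library. TIMP2 (ENSG00000035862) lies on the minus strand of chromosome 17 from 78852977 to 78925387, and its exons share 224 bases with CEP295NL on the same strand and 367 bases with a noncoding gene on the other strand. Of 20 further genes tested within 1 Mb of its start, 5 were higher, 4 lower and 11 did not pass. Over all genes tested, 16.3% were higher and 17.1% lower.

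**Figure D3:**
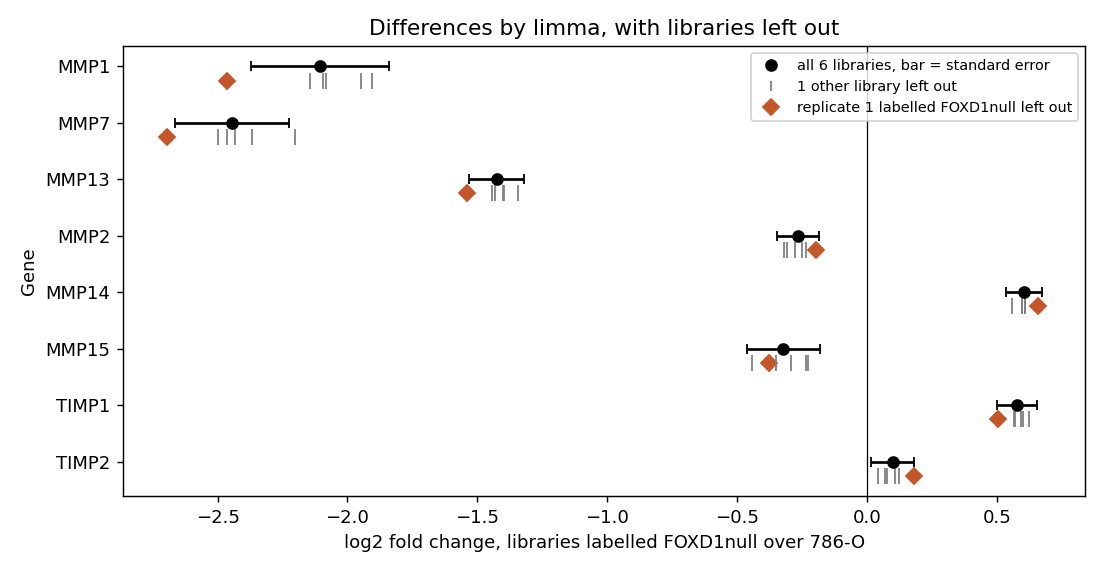
Log2 fold change by limma of each MMP and TIMP gene (libraries labelled FOXD1null over 786-O). Black points and bars are the estimate and its standard error from all 6 libraries, grey ticks are fits with 1 other library left out, and orange diamonds are fits with FOXD1null replicate 1 left out. No member crosses 0 in any of these fits, and leaving out that replicate moves MMP1 from -2.11 to -2.46 and TIMP2 from 0.10 to 0.18.

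Levels were compared between genes as normalized counts per kb of exon, with the exon length of each gene in GENCODE 44. In 786-O the order was MMP14 (3360), TIMP1 (1443), TIMP2 (906), MMP2 (858), MMP13 (507), MMP7 (409), MMP1 (241) and MMP15 (58.7). The ranges of TIMP2 and MMP2 overlapped, and those of the other neighbours in this order did not. In FOXD1null-labelled libraries the order was the same, with MMP14 at 5113, TIMP1 at 2155, TIMP2 at 973, MMP2 at 715 and MMP13 at 190. There MMP7 (77.6), MMP1 (59.5) and MMP15 (46.7) overlapped each with the next, so that the lower end of the order was not resolved. The order rests on the exon lengths used, and the sources used here do not give the release the authors counted with.

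On this scale the make-up of the 6 MMP genes moved towards MMP14. MMP14 held 61.2%, 62.7% and 61.6% of their summed level in parental 786-O, against 80.9%, 83.2% and 83.1% in FOXD1null-labelled libraries. MMP1, MMP7 and MMP13 together held 21.4%, 21.2% and 21.3% in parental 786-O, against 7.14%, 4.33% and 4.49% in the derivative. The share of MMP2 went from 15.8% ± 0.53 to 11.5% ± 0.38 (SD, n = 3). These shares, and the ratios that follow, are taken within a library, so that the scaling between libraries does not enter. They were chosen after the values were seen and are a description without a test. The sum of the 6 leaves out MMP genes that are not members. Of these, MMP24 had a mean of 2840 normalized counts in parental 786-O, against 3237 in the derivative.

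**Figure D4:**
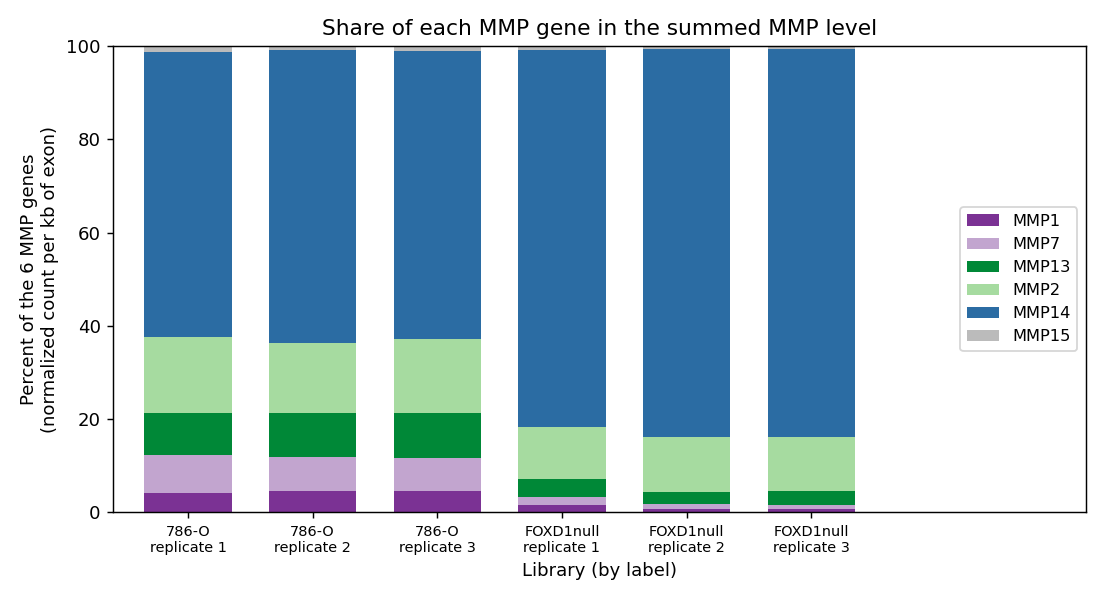
Share of each of the 6 MMP genes in their summed level (normalized count per kb of exon, in percent) in each library. The blue segment, MMP14, covers 61.2% to 62.7% of the bar in parental 786-O, against 80.9% to 83.2% in FOXD1null-labelled libraries, while MMP1, MMP7, MMP13 and MMP2 shrink.

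Ratios between an enzyme and the inhibitor it works with were separate between the groups. The level of MMP14 per kb was 3.60, 3.85 and 3.69 times that of TIMP2 in parental 786-O, against 5.46, 5.18 and 5.16 times in FOXD1null-labelled libraries. The ratio of MMP2 to TIMP2 was 0.953, 0.933 and 0.955 in parental 786-O, against 0.747, 0.733 and 0.727 in the derivative. Within each group this ratio varied less than either gene alone, and MMP2 and TIMP2 were both lowest in replicate 2 of 786-O and in replicate 1 of the derivative. MMP13 stood at 0.335, 0.353 and 0.367 times the level of TIMP1 in parental 786-O, against 0.0929, 0.0809 and 0.0897 times in the derivative. The mean ratio of TIMP1 to TIMP2 was 1.59 ± 0.04 in parental 786-O, against 2.24 ± 0.43 (SD, n = 3) in the derivative, where replicate 1 was at 2.73 and the other libraries at 1.98 and 2.02.

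Relative to the mean, spread within a group was wider in the derivative for every measured member except MMP15. The coefficient of variation of the 8 members had a median of 4.20% in 786-O, with a range from 0.72% for MMP14 to 15.1% for MMP15. In FOXD1null-labelled libraries the median was 9.90% and the range went from 6.96% for MMP14 to 47.0% for MMP1, with MMP15 at 10.1%. Reads were not few, since a member had from 114 to 24921 reads in a library.

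The other MMP genes moved in both directions. Of 18 listed further genes, the remaining MMPs and TIMP4, 7 were matched in the table. Of these, 2 were higher, 3 lower and 2 did not pass, beside 16.3% higher and 17.1% lower among all genes tested. MMP9, or gelatinase B, had 54.7, 66.2 and 73.6 normalized counts in parental 786-O, against 164, 239 and 208 in FOXD1null-labelled libraries, opposite in direction to MMP2. Its log2 fold change was 1.63 (SE 0.18, adjusted p = 3.9e-04 by limma). MMP16, which encodes MT3-MMP, fell by 0.40 on the log2 scale (limma adjusted p = 0.026), from 226 ± 17.2 to 170 ± 13.9 normalized counts (SD, n = 3). MMP17 rose by 0.82, and MMP19 and MMP28 were lower at -1.73 and -2.14, all 3 with a mean under 50 over the libraries. The calls other than MMP9 were not firm: without 786-O replicate 1, MMP9 was the 1 gene of this list that passed. MMP24 was at 0.19 (limma adjusted p = 0.067) and MMP25 at -0.27 (0.38), and neither passed.

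Of 22 genes that activate, anchor, clear or block MMPs beside the TIMPs, 19 were tested. Of these, 8 passed as higher and 3 as lower, against 16.3% and 17.1% of all genes tested. The median log2 fold change of the 19 was 0.16. PCSK5, a proprotein convertase, had the largest decrease among members of the list whose mean reached 100, from 6472, 6171 and 6435 normalized counts in 786-O to 1622, 708 and 791 in FOXD1null-labelled libraries, a log2 fold change of -2.71 (adjusted p = 2.4e-04 by limma). FURIN, the convertase that removes the prodomain of MT1-MMP, differed by 0.12 on the log2 scale (limma adjusted p = 0.17) and reached the threshold only with FOXD1null replicate 1 left out among the single omissions. SPOCK1, a testican proteoglycan, fell by 1.78. PLAU, which encodes urokinase, rose by 1.57, and the hyaluronan receptor CD44, a surface anchor of MMPs, rose by 1.01. RECK, a membrane-anchored MMP inhibitor, and BSG, the MMP inducer basigin, stood at -0.21 and 0.16, with limma adjusted p of 0.16 and 0.11, and did not pass. With FOXD1null replicate 1 left out, 11 were higher and 6 lower, RECK among the lower and BSG among the higher genes. In that fit 55.0% of all genes tested passed.

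Among 18 tested genes of MMP substrates, 5 passed as higher, 6 as lower and 7 in neither direction, and the median was -0.03. Over all genes tested, 16.3% were higher and 17.1% lower. CDH1, 1 of those lower, had 10.0, 57.1 and 5.52 normalized counts in parental 786-O, against 5.39, 0 and 0 in FOXD1null-labelled libraries. Its call was not firm, since it was lost by edgeR and DESeq2 and on leaving out any library except FOXD1null replicate 1. The collagen genes COL4A5 and COL6A3 were lower at -4.08 and -3.19, and NID1, a linker of basement membranes, fell by 1.67. LAMB3, which encodes the beta chain of laminin-332, rose by 2.47. Of 18 factors known to act on MMP promoters, 8 passed as higher and 3 as lower, around a median of 0.11. The shares over all genes tested were again 16.3% and 17.1%. LEF1, a factor of Wnt signaling, had 389, 328 and 348 normalized counts in parental 786-O, against 75.5, 3.03 and 0 in FOXD1null-labelled libraries. Its fitted log2 fold change of -5.72 depends on the added count of 1, and LEF1 was not called by DESeq2 on recovered reads. JUNB, a subunit of AP-1, rose by 0.76, and the ETS factors ETV5 and ETS1 rose by 1.58 and 0.63. RUNX2, a factor of the MMP13 promoter, did not pass at -0.07 (adjusted p = 0.47). The AP-1 genes FOS and FOSB varied widely in 786-O, with FOS at 97.1, 710 and 146, and did not pass.

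**Figure D5:**
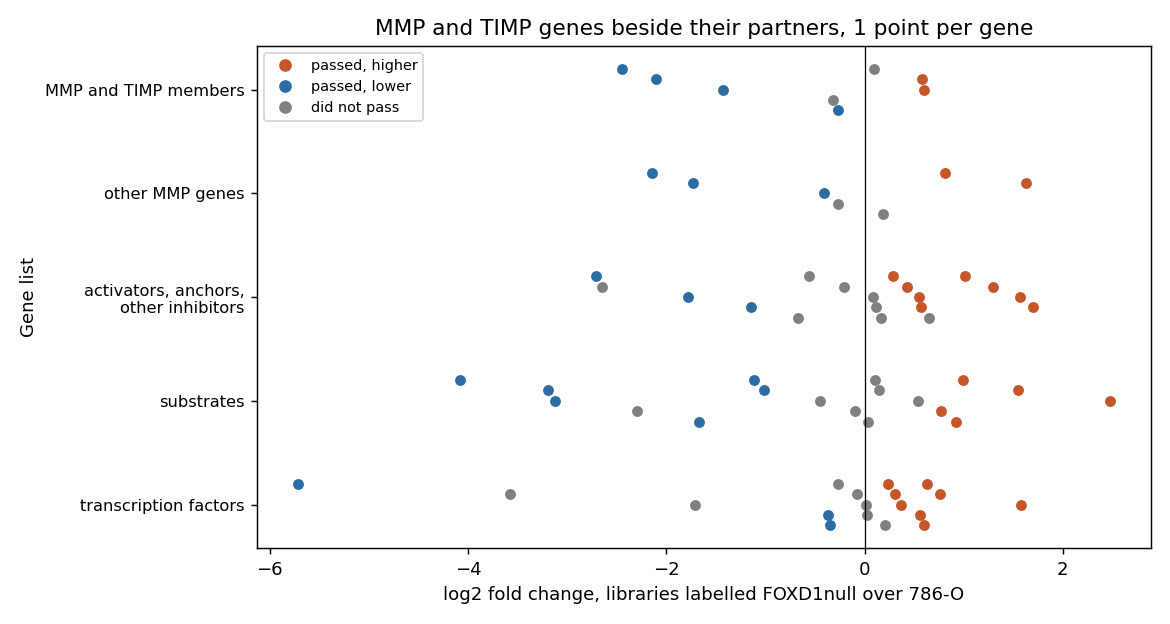
Log2 fold change (libraries labelled FOXD1null over 786-O) of each tested gene in the list of MMP and TIMP members and in 4 lists of related genes, with 1 point per gene. Colours mark genes that passed higher or lower or did not pass, and every list holds genes on both sides of 0.

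Fibroblasts make several of these enzymes, and their markers were examined beside them. Of 8 fibroblast and stroma markers 5 were matched in the table. Of these, COL1A1, LUM and PDGFRB were lower and none was higher in FOXD1null-labelled libraries, against 17.1% and 16.3% of all genes tested. Their summed level was 764 to 907 normalized counts in parental 786-O, against 291 to 455 in the derivative, most of it COL1A1, and COL3A1 was at 0, 56.2 and 5.52 in parental 786-O, against 2.16, 0 and 0 in the derivative. Their part in the lower MMP genes was not tested. Both lines are cultures of 786-O or its derivative, and the sources describe no added fibroblasts. These values are therefore not read as a count of stromal cells. Whether fewer cells of a line held this RNA or each held less cannot be told apart in RNA of a whole culture. Within parental 786-O, COL3A1, CDH1 and FOS were all highest in replicate 2, while COL1A1 and PDGFRB were not. The cause was not tested.

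The genes most like a member over the 6 libraries were found among genes whose mean reached 100, by the Pearson correlation of log2(normalized count + 1). For MMP1 these were CHST9, DACT1 and an unnamed gene, for MMP7 PKDCC, LY6E and PPP1R14C, and for MMP13 AIG1, SLC8A1 and GJC1. For MMP14 they were TTC7B, TAP1 and SCARB1, for TIMP1 YIF1A, PRDX6 and NBL1, and for MMP2 ERMAP, IQSEC1 and CTTNBP2NL. For MMP1, 184 genes were above 0.99, and for MMP2 10. The points are the same 6 libraries for every gene, and the likeness is a description.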

How the data were processed

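The table held 1 normalized count signal per gene and library, which the authors made with Trimmomatic 0.36, STAR 2.5.2b on hg38, featureCounts on exons and 1 DESeq2 size factor per library. Its 6 columns of group means and of the authors' own comparison (differences, fold changes and p-values) were not used. All values were whole multiples of 1 read within 0.001 of a read (100%), so whole reads were recovered, on which edgeR called 2705 genes higher and 2970 lower and DESeq2 2930 and 2918. GENCODE 44 named 16747 of 16922 genes. limma 3.58.1 (R 4.3.3, trended prior) was fitted on log2(normalized count + 1) to genes with a mean of at least 10 (21 left out), with Benjamini-Hochberg adjustment, and the step was tested on simulated counts. The 16 alternatives include edgeR 4.0.16 and DESeq2 1.42.0 on recovered reads, other scalings, pseudocounts and filters, a replicate block and each library left out. From each list of related genes, the text names the 4 largest changes (fewer where fewer exist) among genes past the threshold whose groups did not overlap and whose mean reached 100, except 1 gene that is not reported here. Other genes of the lists were named after their values were seen. Members and lists were chosen with earlier results of these data known. RefSeq windows were matched by symbol for 4 of 8 members. Python 3.11.15 was used with scipy 1.17.1, pandas 2.3.3, numpy 2.4.6 and, for plots, matplotlib 3.10.9.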

Additional observations from a re-analysis of the deposited data

How the results depend on the processing

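MMP1, MMP7, MMP13, MMP14 and TIMP1 passed in the same direction under all 16 alternatives, with log2 fold changes of -2.46 to -1.91, -2.70 to -2.20, -1.54 to -1.34, 0.51 to 0.66 and 0.48 to 0.62. MMP2, MMP15 and TIMP2 kept their direction, but 6 alternatives ended the call of MMP2, 2 gave a call of MMP15 and 1 of TIMP2. With 1 library left out, 2 to 3 members were higher and 3 to 5 lower, other MMP genes 1 to 3 higher and 0 to 3 lower, MMP regulators 6 to 11 higher and 3 to 6 lower, and all genes 1798 to 4635 higher and 1823 to 4667 lower. The count of 0, by limma without 786-O replicate 1, had 3 genes lower at an unadjusted p under 0.05. The highest counts of all genes and of regulators came without replicate 1 labelled FOXD1null. With a mean of at least 50 required, 1 other MMP gene was higher and 1 lower, since fewer genes were tested. Replicate numbers are shared by the lines in the labels only: same-numbered libraries did not deviate together (correlations of -0.25, -0.23 and 0.0052). With the number as a replicate block, 2 members were higher and 3 lower, without MMP2 (log2 fold change -0.27, adjusted p = 0.078), and 2391 genes were higher and 2489 lower. Depth limits none of the members much. The cause of these shifts was not tested.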
